A study of Mus musculus with 3 samples.

Results

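CD8 T cells were picked out of 3 Drop-seq libraries of digested mouse liver by a marker gate, and 136 of 25263 cells, out of 46331 deposited barcodes, met it. A cell had at least 200 detected genes. It was taken as a CD8 T cell when it carried a unique molecular identifier (UMI, 1 counted RNA molecule) of at least 2 of 6 genes of the T cell receptor complex, namely Cd3d, Cd3e, Cd3g, Trac, Trbc1 and Trbc2, and at least 1 UMI of Cd8a and Cd8b1 together, which encode the alpha and beta chains of the CD8 co-receptor. These 8 genes chose the cells, so that their own levels are a description and carry no test. The gate held 62 cells of the control library, 24 cells of the library from day 1 post injury (p.i.) and 50 cells of the library from day 7 p.i. The cells were therefore chosen by measured values, the UMIs of these genes.

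CD8 T cells read peptides on MHC class I molecules and kill the cells that present a foreign or altered peptide, by releasing granules with perforin and granzymes. Naive CD8 T cells circulate through lymphoid organs with the help of homing receptors such as Ccr7. After activation they divide, switch on granzymes and chemokines such as Ccl5, and enter tissues, among them the liver, where the receptor Cxcr6 helps to hold them in the sinusoids.

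The mice were adult C57BL/6 animals without any transgene named in the labels, and each library was made from liver tissue pooled from 3 animals. In the 2 injured groups, irreversible electroporation (IRE), a series of electric pulses that kills the cells between 2 electrodes on a liver lobe, was followed by a punch biopsy of the electroporated area after 1 day or 7 days. The control group is labelled as sham surgery with tissue taken after 1 day, whereas the study's methods speak of an equivalent, uninjured area, and there is no control taken after 7 days. With 1 library per condition, no difference between conditions could be tested, and day, animals, punch and library cannot be told apart. All intervals are 95% intervals for counting error only. Ratios compare summed UMIs of CD8 T cells per 1000000 UMIs (CPM), and a gene was counted as higher or lower when it had at least 20 UMIs over both libraries and differed by 2-fold or more.

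The libraries held 10032574 UMIs in control, 8563287 on day 1 and 4580021 on day 7, with medians of 595, 509 and 456.5 UMIs per cell. The name free RNA is used here for the UMIs of barcodes under 200 genes. These barcodes were not shown to be empty and may include cells with little RNA. In control, on day 1 and on day 7, 15629 of 15704, 18141 of 18161 and 12336 of 12466 barcodes had at least 100 genes. With that minimum the gate held 67, 25 and 58 cells. How much of the RNA of barcodes under 200 genes was free was not tested. This RNA differed between the libraries. Markers of neutrophils took 1.00%, 0.0827% and 9.82% of its UMIs in the same order. The median share of mitochondrial UMIs in the CD8 T cells was 17.5% in control, 25.1% on day 1 and 4.11% on day 7. Between 202 and 738 barcode sequences occurred in both libraries of a pair, but no barcode was a CD8 T cell in both.

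CD8 T cells made up a larger part of the T cells on day 7 than in the other libraries. They were 0.597% of all cells in control (0.458% to 0.765%), 0.259% on day 1 (0.166% to 0.386%) and 0.889% on day 7 (0.661% to 1.17%). Of the barcodes that met the T cell criterion, CD8 T cells were 62 of 441 in control, or 14.1% (10.95% to 17.7%). They were 24 of 262 on day 1, or 9.16% (5.96% to 13.3%), and 50 of 111 on day 7, or 45.0% (35.6% to 54.8%). The remaining T cells, in which no Cd8 UMI was seen, numbered 379, 238 and 61, or 3.65%, 2.57% and 1.08% of all cells. Some of these may be CD8 T cells whose Cd8 RNA was missed, since the median CD8 T cell gave only 781, 657.5 and 517.5 UMIs. The share among T cells was highest in the library with the shallowest cells. With every cell cut down at random to 300 UMIs, it was 13.6% in control, 2.68% on day 1 and 39.4% on day 7. These shares rest on 21, 3 and 26 CD8 T cells.

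**Figure D1:**
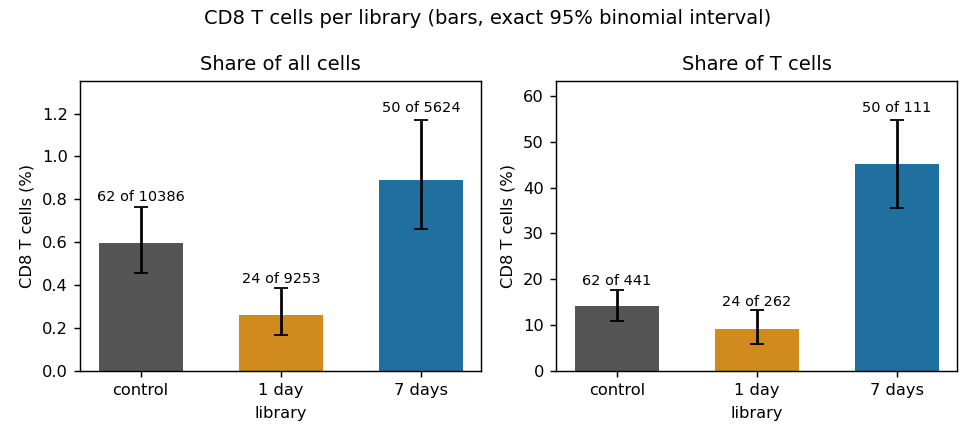
CD8 T cells as a percentage of all cells and as a percentage of all T cells in the control library and the libraries of days 1 and 7 p.i. Bars are the shares in single libraries of 3 pooled livers, and error bars are exact 95% binomial intervals, which cover counting error only. The share of T cells was 14.1% in control, 9.16% on day 1 and 45.0% on day 7.

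Many cells passed the gate by little. In control, 26 of 62 cells stood just inside it, with 2 of the T cell genes and a single Cd8 UMI, as did 13 of 24 on day 1 and 15 of 50 on day 7. Cd8a was seen without Cd8b1 in 27, 9 and 10 cells, Cd8b1 without Cd8a in 26, 11 and 28 cells, and both chains in 9, 4 and 12 cells. Trbc2, a constant segment of the receptor's beta chain, was the T cell gene found most often, in 48, 13 and 32 cells. Variable segments of the beta chain were caught in 15, 8 and 21 cells, and they came from 8, 6 and 10 different Trbv genes. In these cells the most frequent segment, Trbv12-2 in control, Trbv17 on day 1 and Trbv1 on day 7, was seen in 4, 4 and 6 cells. Reads of 2 segments were carried by 1 cell, on day 1.

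Genes of T cell signalling that the gate did not use were found in most CD8 T cells in control and on day 7 and in fewer on day 1. A UMI of at least 1 of 20 such genes was present in 93.5% of CD8 T cells in control, 66.7% on day 1 and 92.0% on day 7. The same was true of 39.1%, 39.6% and 50.0% of B cells, which should lack most of them and had medians of 577, 526 and 501 UMIs. In the cells just inside the gate these genes took 0.363%, 0.103% and 0.775% of UMIs, and in cells just outside it, with a Cd8 UMI but only 1 T cell gene, 0.221%, 0.104% and 0.507%. The cells just inside the gate on day 1 therefore stood close to those outside it and to B cells, in which the share was 0.0847%. Every ratio on day 1 rests on these 24 cells, of which 16 carried such a gene, and the part of cells other than CD8 T cells in those ratios was not tested. As a measure of stray RNA, a Cd8 UMI occurred in 1.08%, 1.23% and 0.766% of cells without any T cell gene. Of barcodes with 2 or more B cell genes, 0 of 202, 1 of 232 and 0 of 20 met the whole gate. A count of 0 allows up to 1.81% in control and 16.8% on day 7.

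Markers of other T cells were sparse. Cd4, the co-receptor of helper T cells, and Foxp3, the factor that defines regulatory T cells, had no UMI in any of the 136 cells. All 10 helper and regulatory markers together gave 20, 0 and 2 UMIs, and 9 markers of gamma-delta and NKT cells gave 3, 0 and 0. The helper and regulatory markers took 0.0303%, 0% and 0.00714% of UMIs in CD8 T cells and 0.0396%, 0.0227% and 0.0405% in T cells without Cd8, so that the share in control was close to that of the cells these markers should define. Markers of other classes were more frequent. At least 3 macrophage markers were found in 12, 7 and 0 CD8 T cells, at least 3 neutrophil markers in 3, 0 and 28, and at least 3 endothelial markers in 1, 7 and 0. Whether these cells were doublets or carried free RNA was not tested. Counting any of these classes or B cells, 14, 10 and 28 cells were mixed in this sense.

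Granzyme genes gave the clearest contrast among the cytotoxic genes, because the 2 main granzymes went in opposite directions. Gzma, which encodes the tryptase granzyme A, had 177 UMIs in 21 of 62 cells in control, 5 UMIs in 2 of 24 cells on day 1 and 31 UMIs in 16 of 50 cells on day 7. The levels were 2685, 174 and 1107 CPM. Gzma was thus lower at both times, with ratios to control of 0.0648 (0.0208 to 0.154) on day 1 and 0.412 (0.272 to 0.606) on day 7. The share of cells with a Gzma UMI, however, was about the same in control and on day 7, at 33.9% and 32%, and once every cell had been cut down at random to 300 UMIs (thinned) it was 22.6% and 20.8%. A single cell carried up to 39 UMIs of Gzma in control, up to 4 on day 1 and up to 6 on day 7, in cells of unequal depth. In T cells without Cd8 Gzma stood at 543, 262 and 1046 CPM, a ratio of 1.93 on day 7. The difference between this ratio and that of the CD8 T cells was not tested, since each condition had 1 library.

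Gzmb, which encodes granzyme B, the protease that starts apoptosis in target cells, had 38 UMIs in 13 cells in control, 9 UMIs in 3 cells on day 1 and 61 UMIs in 24 cells on day 7. The levels were 576, 313 and 2178 CPM. Gzmb was 3.78-fold higher on day 7 than in control (2.48 to 5.83), and it was seen in 48% of cells against 21.0%, or 31.3% against 11.3% after thinning. T cells without Cd8 gave a ratio of 4.08 for Gzmb. In B cells a Gzmb UMI was seen in 1.09% and 0.990% of cells in control and on day 1. It was seen in 0 of 20 on day 7, which allows up to 16.8%. Free RNA held between 36.8 and 39.6 CPM of Gzmb in the 3 libraries. The difference on day 1 was smaller than the counting error, at 0.543 (0.231 to 1.14).

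The 2 granzymes were also distributed differently over the cells. In control, 12 of the 13 cells with Gzmb carried Gzma too, and 9 cells had Gzma alone. On day 7, 9 cells carried both, 7 had Gzma alone and 15 had Gzmb alone, compared with 1 cell with Gzmb alone in control. Neither granzyme was seen in 40, 21 and 19 cells. The cells with Gzmb alone on day 7 had a median of 500 UMIs, against 554 in all cells with Gzmb of that day. In control the cells with Gzmb were deeper, with a median of 1483 UMIs, so that a second granzyme was easier to see there. The part of depth in this contrast was not tested. Of the 15 cells with Gzmb alone on day 7, 13 carried a UMI of a T cell signalling gene that the gate did not use.

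**Figure D2:**
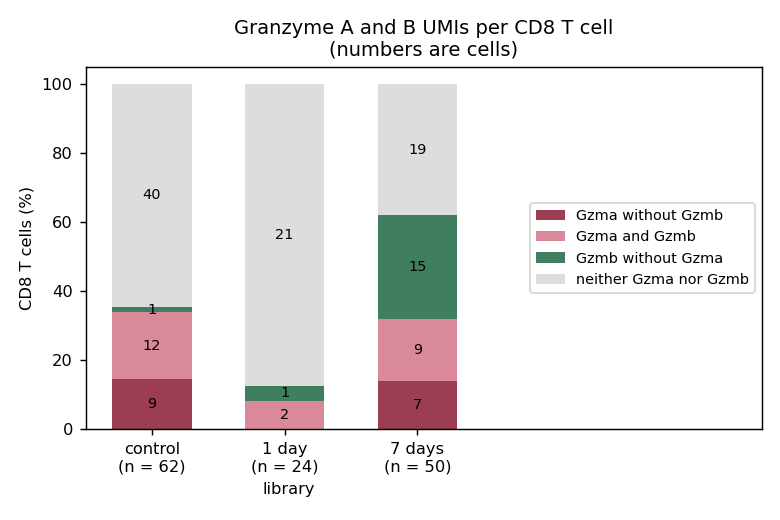
Percentage of CD8 T cells of each library with UMIs of Gzma alone, Gzmb alone, both or neither, with the number of cells written in the bars. Cells with Gzmb alone numbered 1 of 62 in control, 1 of 24 on day 1 and 15 of 50 on day 7.

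Of the 5 other cytotoxic genes with enough UMIs, Nkg7 and Srgn were 2-fold or more higher on day 7 than in control, Lamp1 was lower, and Ctsw and Serpinb6b, at 1.85 and 1.11, lay between. Of all genes tested, 15.8% were higher and 13.1% lower. Nkg7, a protein of cytotoxic granule membranes, had 49, 24 and 61 UMIs, or 743, 835 and 2178 CPM, and was 2.93-fold higher on day 7 than in control (1.98 to 4.36). Prf1, which encodes the pore former perforin, had 0 UMIs in control, 0 on day 1 and 7 in 5 cells on day 7. Counts were too low for a ratio also for Gzmk with 3, 1 and 5 UMIs, for Fasl, the ligand of a death receptor, with 3, 0 and 5, and for Ifng, the main type II interferon, with 4, 3 and 9. Srgn, the granule proteoglycan that binds granzymes, was 6.44-fold higher on day 7 (4.40 to 9.61), but free RNA of that library held 13506 CPM of it against 3714 CPM in the CD8 T cells.

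As a group, the 15 cytotoxic genes took 0.569% of UMIs in control, 0.240% on day 1 and 1.13% on day 7. The ratio on day 7 was 1.98 (1.70 to 2.31) in CD8 T cells, beside 3.61 in T cells without Cd8. Of the 7 genes with enough UMIs, 3 were 2-fold or more higher on day 7, where 15.8% of all genes tested were, and 2 were lower, where 13.1% were. The 2 lower genes were Gzma and Lamp1, a lysosomal membrane protein with 18, 7 and 3 UMIs. On day 1 the group's ratio to control was 0.422 (0.322 to 0.547), with 0 of 6 genes higher, where 10.2% of all genes tested were, and 2 lower, where 26.3% were. In free RNA the group took 0.142%, 0.130% and 1.43% of UMIs, most of the last from Srgn.

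Ccl5, a chemokine that effector and memory CD8 T cells store and secrete, gave more UMIs than Gzma or Gzmb on day 1 and day 7 and fewer than Gzma in control. It had 151 UMIs in 32 cells in control, 76 UMIs in 12 cells on day 1 and 262 UMIs in 36 cells on day 7, or 2290, 2643 and 9356 CPM. Ccl5 was 4.09-fold higher on day 7 than in control (3.33 to 5.02), and 4.75-fold higher in T cells without Cd8. It was found in 30.6%, 37.5% and 66.7% of thinned CD8 T cells, whereas 13.0%, 8.42% and 5% of B cells carried a Ccl5 UMI before thinning. Of the 76 UMIs on day 1, 39 came from a single cell, and the ratio to control was 1.15 (0.864 to 1.53).

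Other chemokine and homing genes were sparse. Ccl3 and Ccl4, inflammatory chemokines, had 1, 7 and 8 and 4, 13 and 14 UMIs, with all 7 UMIs of Ccl3 and 12 of the 13 UMIs of Ccl4 on day 1 in a single cell each. Xcl1, which attracts cross-presenting dendritic cells, had 8, 1 and 1 UMIs. Cxcr6 was seen in 6 cells in control, in 0 of 24 on day 1, which allows a share of up to 14.2%, and in 8 cells on day 7. Ccr2, a receptor for monocyte chemoattractants that effector T cells also use, had 17, 3 and 13 UMIs. Cxcr3, the receptor for interferon-induced chemokines, was found in 7, 2 and 3 cells. The list of 13 chemokine genes, most of it Ccl5, took 0.314%, 0.362% and 1.15% of UMIs. The 11 genes of tissue residence had too few UMIs for single ratios and together gave a ratio of 1.51 (0.936 to 2.40) on day 7.

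**Figure D3:**
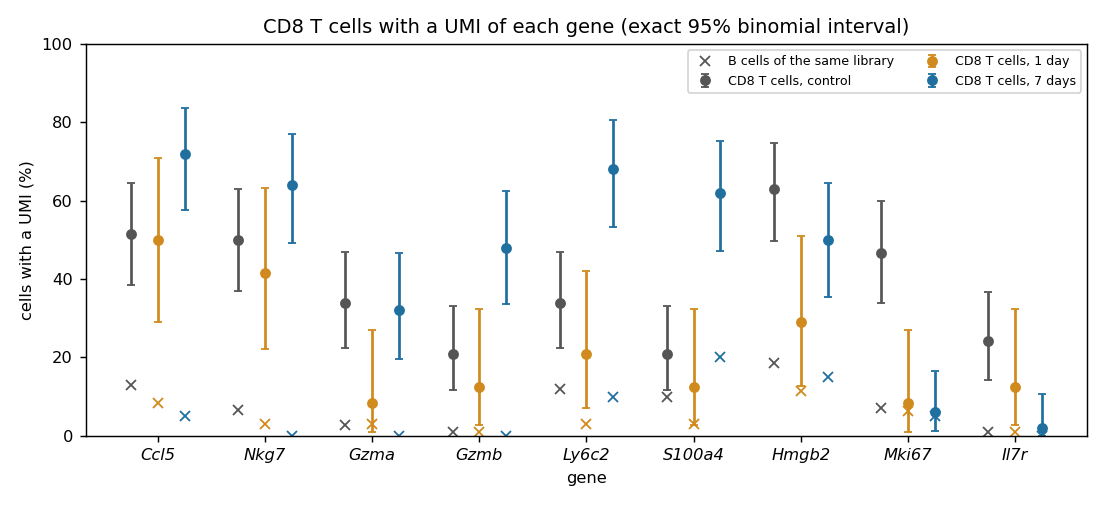
Share of cells with at least 1 UMI of 9 genes in CD8 T cells of each library (points, with exact 95% binomial intervals) and in B cells of the same library (crosses). Ccl5, Gzmb, Ly6c2 and S100a4 were found in a larger share of CD8 T cells on day 7 than in control, Mki67 and Il7r in a smaller one.

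Naive and effector genes split the CD8 T cells differently in the 3 libraries. At least 1 of the effector genes Gzma, Gzmb, Gzmk, Prf1, Nkg7 and Ccl5 was found in 44 of 62 cells in control, 15 of 24 on day 1 and 47 of 50 on day 7. At least 1 of the naive and central memory genes Ccr7, Lef1, Tcf7 and Il7r was found in 21, 9 and 5 cells. Cells with naive genes and no effector gene numbered 9, 7 and 0, where 0 of 50 allows a share of up to 7.11%. All 5 cells with a naive gene on day 7 also carried an effector gene, as did 12 of 21 in control. A UMI of the whole list of 14 naive and memory genes was found in 40, 18 and 22 cells. Cells were deeper in control than on day 7, with medians of 781 and 517.5 UMIs, and the part of depth in these counts was not tested.

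Single naive genes had few UMIs. Il7r, the receptor chain for the survival cytokine interleukin 7, was seen in 15, 3 and 1 cells with 18, 3 and 1 UMIs. Tcf7, a transcription factor of naive and memory T cells, had 10, 5 and 1 UMIs. Lef1, the partner of Tcf7, did not follow the pattern and had 3, 3 and 4 UMIs. Over the whole list of 14 genes the share of UMIs was 0.140%, 0.177% and 0.129%, and the ratio on day 7 was 0.921 (0.609 to 1.37), so that no difference in the list was detectable at this depth. The gene with the most UMIs on day 1 was Igfbp4, with 9, 15 and 2 UMIs, and free RNA followed the same order with 104, 367 and 10.5 CPM.

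Ly6c2, of the interferon list, and S100a4, of the list of actin and motility genes, were among the genes that were higher on day 7. Ly6c2, a surface antigen of effector and memory CD8 T cells, had 39 UMIs in 21 cells, 9 UMIs in 5 cells and 92 UMIs in 34 cells, or 592, 313 and 3285 CPM. Ly6c2 was 5.55-fold higher on day 7 than in control (3.78 to 8.30), and 5.27-fold higher in T cells without Cd8. S100a4, a calcium-binding protein of motile effector and memory cells, had 20 UMIs in 13 cells, 10 UMIs in 3 cells and 60 UMIs in 31 cells, or 303, 348 and 2143 CPM. S100a4 was 7.06-fold higher on day 7 (4.20 to 12.4) and stood in 50% of thinned cells against 8.06% in control.

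T cells without Cd8 gave S100a4 levels of 780, 187 and 742 CPM, a ratio of 0.951 on day 7. The difference from the CD8 T cells' ratio was not tested. B cells gave a ratio of 4.39 for S100a4, and free RNA held 235, 46.8 and 405 CPM. Id2, a transcriptional regulator that effector CD8 T cells need, had 30, 8 and 34 UMIs and was 2.67-fold higher on day 7 (1.58 to 4.51). Tbx21, Eomes and Runx3, transcription factors of the cytotoxic programme, had 6, 1 and 3, 3, 1 and 4, and 9, 1 and 3 UMIs, too few for a ratio. Across the 15 transcription factors the share was 0.152%, 0.0870% and 0.257% of UMIs.

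Inhibitory receptors were close to the limit of detection. Pdcd1, the receptor PD-1, had 0, 0 and 3 UMIs, and Lag3 had none in any library. Tnfrsf9, a receptor that activated T cells display, had 3, 0 and 7 UMIs, and Entpd1, an enzyme that removes extracellular ATP, had 2, 0 and 8, with 517 CPM of it in free RNA on day 7 against 286 CPM in the CD8 T cells. Il2rb, a receptor chain for interleukins 2 and 15, was the best detected of this list with 13, 1 and 8 UMIs. The list of 15 genes took 0.0652%, 0.0174% and 0.168% of UMIs.

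Interferon-induced genes were higher on day 7 and not detectably different on day 1. The list took 0.344% of the CD8 T cells' UMIs in control, 0.313% on day 1 and 1.30% on day 7, with ratios of 0.909 (0.704 to 1.17) and 3.79 (3.20 to 4.49). T cells without Cd8 gave 2.78 and B cells 2.46 on day 7, and free RNA went from 0.364% to 0.921%. On day 7, 5 of the 7 genes tested were 2-fold or more higher and 0 lower, where 15.8% and 13.1% of all genes were. Among these were Ly6c2, Ifi27l2a, Ly6a and Slfn2.

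Ifi27l2a, a mitochondrial protein induced by interferon, had 32, 15 and 67 UMIs and a ratio of 4.93 (3.19 to 7.76) on day 7. Ly6a, which encodes the antigen Sca-1, had 21, 5 and 34 UMIs and a ratio of 3.81 (2.15 to 6.91), beside 1.28 in T cells without Cd8. Isg15, a ubiquitin-like protein induced by type I interferon, had 1, 0 and 12 UMIs, and free RNA of the 7-day library held 448 CPM of it against 429 CPM in the CD8 T cells.

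The MHC class I genes, through which every nucleated cell shows peptides to CD8 T cells, were also higher on day 7 in the CD8 T cells themselves. B2m, the invariant light chain, had 183, 104 and 176 UMIs, or 2776, 3617 and 6285 CPM, and was 2.26-fold higher (1.83 to 2.80). The heavy chains H2-K1 and H2-D1 gave ratios of 1.91 (1.45 to 2.51) and 1.98 (1.497 to 2.60). Psmb8 and Psmb9, subunits of the immunoproteasome that cuts peptides for MHC class I, gave 2.52 (1.46 to 4.38) and 2.67 (1.25 to 5.74). Of 11 genes tested, 5 were 2-fold or more higher, against 15.8% of all genes, and 0 lower. Of these 5, 3 were also 2-fold or more higher in T cells without Cd8, 0 in B cells and 1 in NK cells. The list took 0.998%, 1.00% and 1.97% of UMIs. Over the ways of choosing cells and scaling that were run, its ratio on day 7 ranged from 1.34 to 2.18. The ratio of B2m ranged from 1.54 to 2.75, that of Psmb8 from 1.65 to 2.91 and that of Psmb9 from 1.81 to 4.41. On day 1, 0 of 10 genes passed 2-fold in either direction, where 10.2% of all genes were higher and 26.3% lower.

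Genes of the T cell receptor's signalling chain were, as a list, somewhat higher on day 7 than in control. The list took 0.363%, 0.219% and 0.582% of UMIs. Its ratios to control were 0.604 (0.450 to 0.801) on day 1 and 1.61 (1.31 to 1.97) on day 7. Over the ways of choosing cells and scaling that were run, they ranged from 0.513 to 1.46 and from 1.09 to 1.74. Of 7 genes tested, 1 was 2-fold or more higher on day 7, a share near the 15.8% of all genes. That gene was Cd2, an adhesion receptor that helps T cells bind their targets, with 17, 1 and 16 UMIs and a ratio of 2.22 (1.05 to 4.66). Thy1, a surface protein of T cells, had 38, 6 and 25 UMIs, with ratios to control of 0.362 (0.125 to 0.863) on day 1 and 1.55 (0.896 to 2.63) on day 7. Lck, the kinase that binds the CD8 co-receptor, had 22, 4 and 15 UMIs, and Lat, the adaptor that it and Zap70 act on, had 18, 6 and 8. Cd27, a co-stimulatory receptor, had 14, 5 and 9 UMIs, or 212, 174 and 321 CPM, and stood at 67.5, 80.7 and 101 CPM in T cells without Cd8.

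Receptors of the NK type were spread thinly over the cells. Klrd1, the CD94 chain, had 14, 1 and 7 UMIs, and Klrk1, which encodes NKG2D, had 8, 1 and 7. Klra7, a member of the Ly49 family, had 12 UMIs in 6 cells in control, 1 on day 1 and 0 on day 7. Of the 12 genes 3 had enough UMIs on day 7, and of these the adaptors Fcer1g and Tyrobp were 2-fold or more higher, where 15.8% of all genes were, with 24, 4 and 21 and 41, 10 and 40 UMIs, and both were more abundant in free RNA than in the CD8 T cells. Without mixed cells the ratio of Fcer1g was 0.845. The list's ratio on day 7 was 1.64, and 0.951 without mixed cells.

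Dividing cells were most frequent in control. Mki67, the standard marker of cells in cycle, had 73 UMIs in 29 of 62 cells in control, 6 UMIs in 2 of 24 cells on day 1 and 9 UMIs in 3 of 50 cells on day 7. The levels were 1107, 209 and 321 CPM, and the ratios to control were 0.188 (0.0670 to 0.430) and 0.290 (0.128 to 0.582). After thinning, Mki67 was left in 24.2%, 4.17% and 6.25% of cells. Top2a, the topoisomerase that untangles chromosomes before mitosis, followed with 73, 10 and 14 UMIs, and so did Hmgb2, a chromatin protein abundant in cycling lymphocytes, with 261, 36 and 57 UMIs and ratios of 0.316 (0.217 to 0.449) and 0.514 (0.379 to 0.687).

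Genes of DNA synthesis and of the spindle did not all follow Mki67 on day 7. Pcna, the clamp of the replication fork, had 25, 3 and 15 UMIs and a ratio of 1.41 (0.692 to 2.79) on day 7. Stmn1, which regulates microtubules, had 26, 5 and 11 UMIs and a ratio of 0.996 (0.444 to 2.09). The list of 26 division genes took 1.09%, 0.543% and 0.711% of UMIs, with 0 of 10 genes higher and 3 lower on day 7, and with 0 of 11 higher and 6 lower on day 1. Of all genes, 13.1% were lower on day 7 and 26.3% on day 1. Its ratios to control were 0.496 (0.415 to 0.591) and 0.650 (0.553 to 0.761), beside 0.329 and 0.441 in T cells without Cd8. With at least 2 Cd8 UMIs required, which left 8 cells on day 1, the ratio there was 1.11, and with at least 3 T cell genes it was 0.448.

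At least 5 division genes were carried by 27 cells in control, 4 on day 1 and 10 on day 7. Those cells were deeper than the others, with medians of 1303 against 592 UMIs in control and 693.5 against 486.5 on day 7. In control, 14 of these 27 cells carried Gzma or Gzmb, compared with 8 of the other 35, and 10 carried a naive gene, compared with 11. On day 7, 9 of the 10 carried a granzyme, compared with 22 of the other 40. The part of depth in these counts was not tested.

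**Figure D4:**
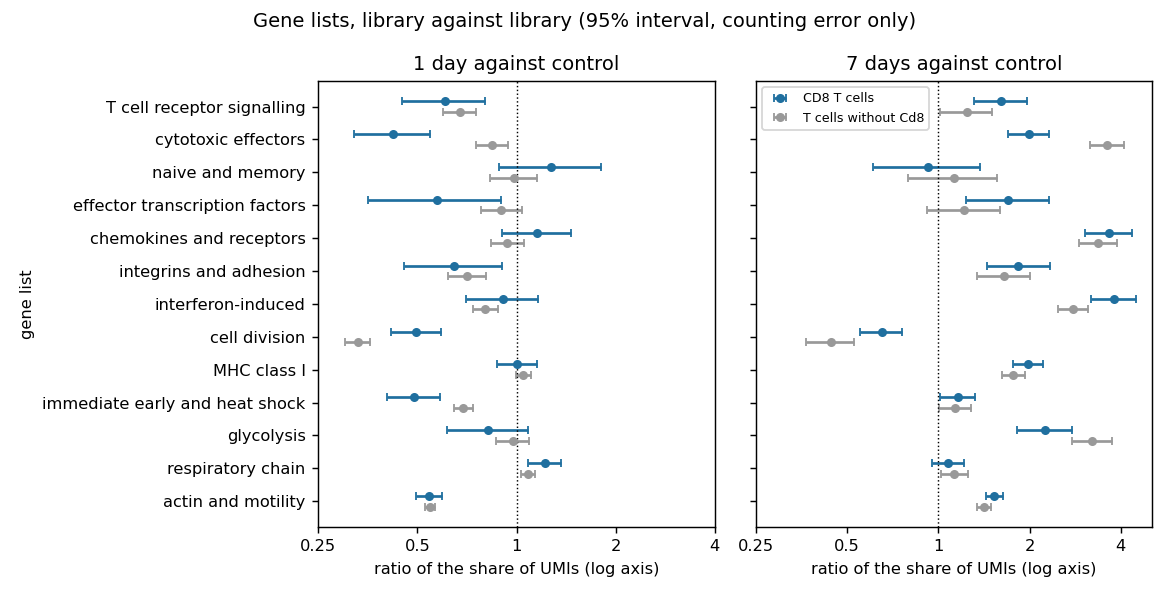
Ratio to control of the share of UMIs taken by 13 gene lists, at 1 day and on day 7, in CD8 T cells (blue) and in T cells without Cd8 (grey), on a log axis. Bars are 95% intervals for counting error. The interferon, chemokine and glycolysis lists stood above 2 in CD8 T cells on day 7, and the division list stood below 1 at both times.

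Genes of adhesion and of the cytoskeleton were compared with control at both times. Itgb1, the beta 1 integrin chain, had 28, 16 and 26 UMIs and was 2.19-fold higher on day 7 than in control (1.23 to 3.87). Selplg, the ligand of selectins on inflamed vessels, had 25, 7 and 24 UMIs and was 2.26-fold higher (1.24 to 4.12). Itgb2, the chain of the integrin LFA-1 shared by leukocytes, had 24, 2 and 9 UMIs, with a ratio of 0.191 (0.0219 to 0.770) on day 1 and 0.883 (0.361 to 1.97) on day 7. Of the 8 adhesion genes tested on day 7, 3 were higher, where 15.8% of all genes were, and 0 lower.

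Actb, which encodes beta actin, stood at 11118 CPM in control, 5252 on day 1 and 17999 on day 7, with 733, 151 and 504 UMIs. Vim, the intermediate filament protein vimentin, had 67, 8 and 36 UMIs and a ratio of 0.274 (0.114 to 0.571) on day 1. Actg1, the second actin of non-muscle cells, had 18, 7 and 36 UMIs and a ratio of 4.71 (2.60 to 8.81) on day 7. Of the 28 genes of the list, 8 of 24 tested were lower on day 1 and 0 higher, and 6 of 25 tested were higher on day 7 and 0 lower, where 26.3% of all genes were lower on day 1 and 15.8% higher on day 7. The list's ratio on day 1 was 0.542 in CD8 T cells and 0.547 in T cells without Cd8.

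Metabolic and stress genes were more entangled with free RNA. Aldoa, Gapdh, Pgk1, Eno1 and Pkm, enzymes of glycolysis, were 2-fold or more higher on day 7, which made 5 of 6 genes tested, where 15.8% of all genes were higher, and each was at or above the CD8 T cells' level in free RNA of that library. The list's ratio was 2.24 (1.82 to 2.76) in CD8 T cells and 3.22 in T cells without Cd8. Nuclear genes of the respiratory chain stood at 1.35%, 1.64% and 1.45% of UMIs, a ratio of 1.08 (0.955 to 1.21) on day 7. Hsp90aa1, a chaperone, had 99, 6 and 17 UMIs, with ratios of 0.139 (0.0498 to 0.313) and 0.404 (0.226 to 0.681). The immediate early and stress list took 1.02%, 0.497% and 1.18% of UMIs, and the part of tissue digestion in it was not tested. Of its 9 genes tested on day 7, 4 were 2-fold or more higher, where 15.8% of all genes were. Hsp90aa1 was the 1 lower gene, where 13.1% of all genes were. The 4 higher genes, Ier3, Jun, Junb and Nfkbia, were each at or above the CD8 T cells' level in free RNA.

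Of the 38 genes in these 16 lists that were 2-fold or more higher on day 7, 16 had a level in free RNA at or above that in the CD8 T cells, and 22 had a lower one. Because the barcodes read as free RNA may include cells, this split cannot tell stray RNA from RNA of the CD8 T cells. The 22 include Gzmb, Nkg7, Ccl5, Ly6c2, Ly6a, Ifi27l2a, S100a4, Id2, Cd2, Itgb1, Selplg, B2m, Psmb8 and Psmb9. Of the 38, 25 were also 2-fold or more higher in T cells without Cd8, 21 in B cells and 23 in NK cells. Of all 111 higher genes, 42 had a level in free RNA at or above that in the CD8 T cells, and 59, 50 and 53 were also higher in those 3 cell classes.

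Over all genes, 67 of 659 were 2-fold or more higher and 173 lower on day 1, and 111 of 703 were higher and 92 lower on day 7. With UMIs of mitochondrial, hepatocyte and red cell genes left out of the total, the counts on day 7 were 80 higher and 125 lower, and with TMM factors they were 56 and 192. The median gene had a log2 ratio of 0.08 as counted, −0.12 under the first and −0.47 under the second, and on day 1 of −0.48, −0.28 and −0.65. Between day 7 and day 1, 126 of 412 genes were higher, or 30.6%, and 69 lower, or 16.7%, which became 85 and 81 without those UMIs. Gzmb, Ccl5, Ly6c2, Ly6a, Ifi27l2a and S100a4 stayed 2-fold or more higher on day 7 than in control in each of 11 settings. Nkg7 and B2m kept a ratio above 1 in each, but it fell as low as 1.99 and 1.54. Mki67 stayed 2-fold or more lower in each. Gzma and Hmgb2 kept a ratio below 1 in each, but it rose as high as 0.624 and 0.656. The settings vary the choice of cells and the scaling. They include the main setting and that without the deepest cell of day 1, which cannot change these ratios. The ranges were 2.32 to 5.91 for Gzmb, 2.77 to 6.09 for Ccl5, 4.80 to 7.35 for S100a4 and 0.212 to 0.624 for Gzma.

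The largest ratios on day 7 belonged to genes of neutrophils. S100a8, a subunit of calprotectin, had 50, 3 and 302 UMIs, and its ratio of 14.2 (10.5 to 19.6) went with 44662 CPM in free RNA against 10785 CPM in the CD8 T cells. Cxcr2, the chemokine receptor of neutrophils, had 0 UMIs in control, and its ratio was 20.4 with that 0 set to 3 UMIs. The lower limit of its interval was 15.4. Cxcl2, a ligand of Cxcr2, gave a ratio of 37.7, Retnlg, a neutrophil granule gene, 20.7, and Ier3, an early response gene, 21.98. Among the lowest ratios were those of genes of macrophages in tissue repair and of lysosomal genes. Gpnmb, with 0 UMIs on day 7 set to 3, gave 0.110, with an upper limit of 0.140. Mmp12 (1 UMI) gave 0.0351, Ctsl 0.0805 and Psap 0.186. Gm26924, a predicted gene, had a ratio of 0.0961. In control, 55 of the 64 UMIs of Gpnmb, 60 of the 67 of Mmp12 and 110 of the 117 of Ctsl came from the 2 deepest of the 62 cells. Without the 3 control cells that carried both Gpnmb and Mmp12, the ratio of Ctsl was 2.03.

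On day 1 a single cell weighed heavily. It held 8978 UMIs, 31.2% of all UMIs of the 24 CD8 T cells, and 31.5% of its UMIs came from hepatocyte markers, against 2.22% in the other 23 cells. It carried 642 of the 733 UMIs of Alb, 118 of the 130 of Apoc3, 102 of the 119 of Serpina1c and 28 of the 32 of Vtn. The leading genes on day 1 were hepatocyte genes of this kind, such as Vtn, which had 0 UMIs in control. With that 0 set to 3 UMIs, the ratio of Vtn was 24.5, with a lower limit of 18.8, and it was 4.45 without this cell. It carried 0 UMIs of Gzma and of Mki67, so that leaving it out raises their levels on day 1. Over the settings run, which include leaving it out, the ratio to control was at most 0.136 for Gzma and 0.472 for Mki67.

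Within libraries, the CD8 T cells could be compared with other lymphocytes by a test over the 3 libraries, using UMIs summed per gate and library and edgeR's quasi-likelihood test with the library as a block. The spread in this test is that among 3 libraries of different conditions. Against T cells without Cd8, 5 of 4810 genes, or 0.104%, were higher at an adjusted p under 0.05 and 0 lower, with 194 genes at an unadjusted p under 0.05. DESeq2 called 0, with 17 at an unadjusted p under 0.05. The 5 were Gpnmb, Mmp12, Ctsl, Hpx and Serpina1c. Hpx, the haem carrier made by hepatocytes, was the only one of these with the same sign in the 3 libraries. Its log2 difference was 1.89 (SE 0.424, adjusted p = 0.0106 by edgeR), and 57 of its 63 UMIs on day 1 came from the deepest cell. The sign rested on 5 UMIs against 7 in control and on 1 UMI in each gate on day 7. No T cell gene passed this test.

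The effector genes Ccl5, Gzmb and Gzma did not pass the test between the 2 kinds of T cells after adjustment over the 4810 genes. Ccl5 was higher in CD8 T cells in 3 of 3 libraries, with a log2 difference of 0.65 (SE 0.208, adjusted p = 0.531 by edgeR). Gzmb was higher in 3 of 3 (log2 difference 0.81, SE 0.301, adjusted p = 0.809 by edgeR), and Cd27 in 3 of 3 (log2 difference 1.46, SE 0.493, adjusted p = 0.590 by edgeR). Gzma was higher in control, at a nearly equal level on day 7 and lower on day 1, with a log2 difference of 1.03 (SE 0.291, adjusted p = 0.229 by edgeR). The call on Gzma depended on the libraries. It was called higher without the library of day 1 (log2 difference 1.53), without that of day 7 (1.45), without the control cells with Gpnmb and Mmp12 (1.16) and with a minimum of 50 UMIs (1.08, where Ccl5 was called at 0.69), and without the control library the difference was −0.15.

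Against NK cells, which had no UMI of the T cell genes and at least 2 NK receptor genes, 10 of 1800 genes, or 0.556%, were higher in CD8 T cells and 3, or 0.167%, lower. All 3 lower genes are part of the killing and activation machinery of NK cells and were lower in 3 of 3 libraries. Gzma stood at 2685, 174 and 1107 CPM in CD8 T cells and at 5426, 4185 and 3991 CPM in NK cells (log2 difference −1.93, SE 0.375, adjusted p = 0.000549 by edgeR). Prf1 had 0, 0 and 7 UMIs against 32, 2 and 5 (log2 difference −2.78, adjusted p = 0.0271 by edgeR). Fcer1g, an adaptor of activating receptors, had 24, 4 and 21 against 95, 18 and 17 (log2 difference −1.74, adjusted p = 0.0212 by edgeR).

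Of the higher genes, 5 had the same sign in the 3 libraries. Hmgb2 stood at 3959, 1252 and 2036 CPM in CD8 T cells and at 2145, 137 and 285 CPM in NK cells (log2 difference 1.72, SE 0.411, adjusted p = 0.0122 by edgeR). Lat had 18, 6 and 8 UMIs against 2, 0 and 0 (log2 difference 3.74, adjusted p = 0.0196 by edgeR), and Ly6c2 had 39, 9 and 92 against 27, 1 and 3 (log2 difference 1.86, adjusted p = 0.0316 by edgeR). H2-Q10 and Apoc3, genes of hepatocytes, owed 20 of 26 and 118 of 130 UMIs on day 1 to the deepest cell. Without that cell Hmgb2, Lat, Ly6c2, Gzma, Prf1 and Fcer1g were among the 9 genes called. DESeq2 called 0 of the 1800 genes, with 27 at an unadjusted p under 0.05, and edgeR called none without the control library or without the library on day 1, with 46 and 62 at an unadjusted p under 0.05.

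**Figure D5:**
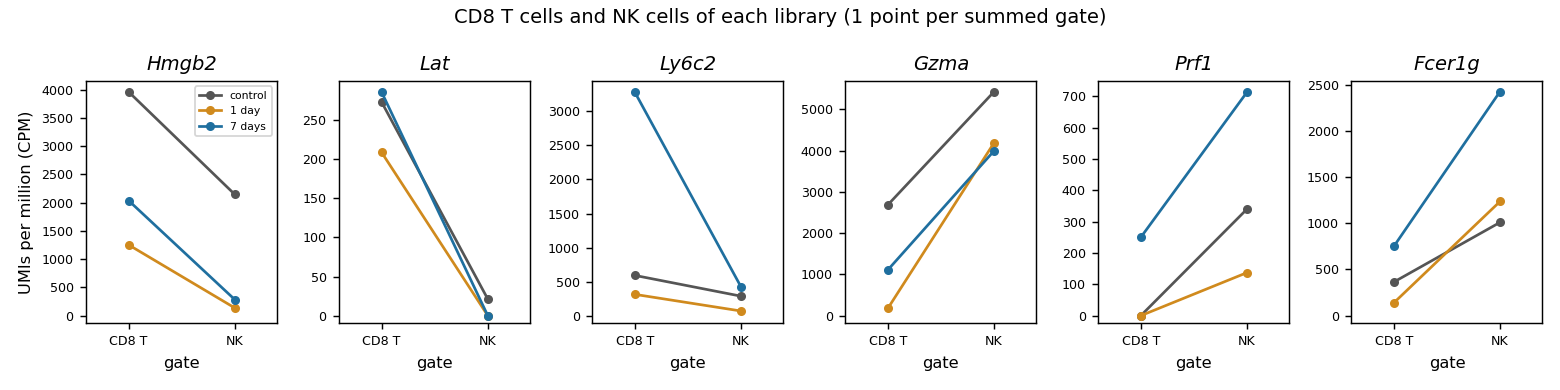
Levels of 6 genes in CD8 T cells and in NK cells of the same library, in UMIs per 1000000 UMIs of the gate, for control, day 1 and day 7 p.i. Gzma, Prf1 and Fcer1g were lower and Hmgb2, Lat and Ly6c2 higher in CD8 T cells in each of the 3 libraries.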

How the data were processed

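Per the file headers, the authors used DigitalExpression of the Drop-seq tools to collapse reads to UMIs, keeping only sense reads in coding or untranslated parts of genes and joining UMIs within an edit distance of 1, and the deposited values are these counts without normalization. The submitters' processing notes name STAR 2.5.2a and a human genome build, although the symbols are those of mouse, so that no coordinates or sequences are given. The tables hold 19091 genes. Condition came from each library's label.

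Cells had at least 200 genes. NK cells had none of the 6 T cell genes and at least 2 of 7 NK receptor genes, and B cells none of the T cell genes and at least 2 of 6 B cell genes. No doublet caller was run, and cells with at least 3 markers of another class were left out as an alternative. The cells, the gene lists and the tests were chosen with earlier results of these data known. UMIs were summed per gate and library and divided by the gate's total. Shares have exact binomial (Clopper-Pearson) and ratios conditional binomial intervals, at 95%, for counting error only. For a ratio, a gene at 0 was set to 3 counts in that library, which gives a value against a floor and not a limit of the interval. Genes named are list genes with at least 10 UMIs in all, the 8 leading genes per direction and comparison, ranked by the bound of the interval nearest to 1, and up to 10 genes per direction of each test. Genes outside this rule, namely the list genes under that minimum (Ccr7, Cd4, Eomes, Fasl, Foxp3, Gzmk, Lag3 and Pdcd1) and those named only as examples of another cell type, were named after their values had been seen.

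For the tests within libraries, edgeR 4.0.16 (glmQLFit, TMM factors, library as block) was run on 6 sums, over genes with at least 20 UMIs and without the genes of the gates, with adjustment by Benjamini-Hochberg, and DESeq2 1.42.0 was the alternative. The 3 libraries of different conditions give the spread. Thinning used seed 1. Steps were tested on simulated data. Some genes are not reported here.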

Additional observations from a re-analysis of the deposited data

Results flagged for a closer look

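For 3 genes the ratio of day 1 to control went in opposite directions in CD8 T cells and in T cells without Cd8 of the same libraries. Each condition was 1 library, so that the difference was not tested. Ctsl, a lysosomal protease, had a ratio of 0.314 in CD8 T cells and 2.17 in T cells without Cd8. Mfge8, a bridging protein for the uptake of dead cells, had ratios of 0.299 and 2.70, the first with 0 UMIs on day 1 set to 3. Spp1, which encodes osteopontin, had ratios of 0.265 and 27.3, the first with 0 UMIs on day 1 set to 3 and an upper limit of 0.350. All 3 are genes of macrophages, and the 2 deepest CD8 T cells of the control library carried 110 of the 117 UMIs of Ctsl there, 21 of the 23 of Mfge8 and 23 of the 26 of Spp1.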

How the results depend on the processing

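The share of CD8 T cells among all cells depended on the gate and not in its order, which was highest on day 7 and lowest on day 1 under each setting run. In control, on day 1 and on day 7 it was 0.429%, 0.138% and 0.470% with 100 genes required, and 0.427%, 0.138% and 0.465% over every deposited barcode. It was 1.16%, 0.692% and 1.32% with 1 T cell gene, 0.202%, 0.0757% and 0.427% with 3, and 0.212%, 0.0865% and 0.480% with 2 Cd8 UMIs. Without mixed cells it was 0.961%, 0.528% and 1.52%, and in thinned cells 0.206%, 0.0335% and 0.512%. With 300 genes required it was 1.20% on day 7. The share of T cells was 9.98%, 5.55% and 27.1% with 1 T cell gene, 4.99%, 3.05% and 24.3% with 2 Cd8 UMIs, and 2.68% on day 1 in thinned cells. The cytotoxic list's ratio to control on day 7 was 1.62 with 3 T cell genes, 1.25 with 2 Cd8 UMIs, 2.48 as a mean over cells and 1.35 with TMM factors. On day 1 it was 0.305, 0.701 and 0.563 under the first 3 of these, and 0.587 without the deepest cell of that day. Between day 7 and day 1 it was 1.78 with 2 Cd8 UMIs, 3.38 without the deepest cell, 3.60 with TMM factors and 3.56 without mitochondrial, hepatocyte and red cell UMIs. The counts of genes past the fold, higher and lower, were for day 1 against control 196 and 395 with a minimum of 10 UMIs, 21 and 51 with 50, 27 and 48 with 2 Cd8 UMIs, and 14 and 58 without mixed cells. Lower genes numbered 295 at 1.5-fold, 86 at 3-fold and 103 with 3 T cell genes, and higher genes 31 without the deepest cell. For day 7 against control they were 306 and 229 with 10 UMIs, 38 and 27 with 50, 217 and 162 at 1.5-fold, 54 and 43 at 3-fold, 54 and 45 with 3 T cell genes, 58 and 55 with 2 Cd8 UMIs, 67 and 45 without mixed cells, and 56 and 192 with TMM factors. For day 7 against day 1 they were 313 and 152 with 10 UMIs, 44 and 27 with 50, 39 and 15 with 2 Cd8 UMIs, and 40 and 5 without mixed cells. Higher genes there numbered 190 at 1.5-fold, 70 at 3-fold and 83 with 3 T cell genes, and lower genes 18 without the deepest cell. Fewer UMIs or a smaller fold admit other numbers of genes by construction.

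With 2 Cd8 UMIs required, the direction changed for the division list on day 1 (1.11), for Stmn1 on day 1 (1.92), and between day 7 and day 1 for Aldoa (0.970), Nkg7 (0.770) and Psmb8 (0.841). Without mixed cells it changed for Fcer1g on day 1 (1.12) and day 7 (0.845), for Itgb2 on day 1 (1.01) and for Tyrobp between the days (0.945). Ctsl changed on day 1 with 3 T cell genes (1.19) and, without the control cells that carried Gpnmb and Mmp12, on day 1 (7.93) and day 7 (2.03). The causes were not tested. Leaving out those cells and the deepest cell were alternatives chosen after the data had been seen.

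Against T cells without Cd8, edgeR called 6 to 10 genes higher and 0 to 3 lower when each library was left out in turn. It called 3 and 6 with 2 Cd8 UMIs, 2 and 1 without the deepest cell, 6 and 3 without the control cells with Gpnmb and Mmp12, 13 and 1 with a minimum of 50 UMIs, 0 and 1 in thinned cells, and 0 higher without mixed cells, without the library block and by DESeq2. Hpx turned to −2.39 and Serpina1c to −1.56 (log2) with 2 Cd8 UMIs and to −0.15 and −0.72 without the deepest cell, and Ctsl to −0.11 without the control cells with Gpnmb and Mmp12 and to −0.25 without mixed cells. Against NK cells the counts were 0 to 22 higher and 0 to 11 lower with each library left out, 4 and 5 without the deepest cell, and 0 and 0 by DESeq2. Apoc3 turned to −0.51 and Ttr to −0.41 without the deepest cell. No paired analysis between conditions was possible because each condition was 1 library and the labels give no replicate numbers. With 24 to 62 cells a library and a median of 517.5 to 781 UMIs a cell, genes under 20 UMIs over both libraries gave no ratio, and in those cells a gene at 0 UMIs may still be expressed.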

Other observations

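The cells can also be set apart by the Cd8 chain that was seen in them. Of 26 control cells with Cd8b1 alone, 11 carried Gzma and 5 carried Gzmb, with a median of 790 UMIs. Of 27 control cells with Cd8a alone, 6 carried Gzma and 4 carried Gzmb, with a median of 708 UMIs. On day 7 the counts for Gzma were 9 of 28 cells with Cd8b1 alone and 3 of 10 with Cd8a alone, and those for S100a4 were 19 of 28 and 4 of 10. These sets were formed after their values had been seen, they rest on 1 library each, and whether an unseen chain was absent or missed was not tested.

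The 28 cells of day 7 with at least 3 neutrophil markers and the 22 without them both carried effector genes. Gzma or Gzmb was found in 15 of 28 and 16 of 22, Ccl5 in 22 of 28 and 14 of 22, Ly6c2 in 20 of 28 and 14 of 22, and S100a4 in 14 of 28 and 17 of 22. The median depth was 589 UMIs in the first set and 486.5 in the second. A UMI of a T cell signalling gene that the gate did not use was found in 26 of 28 and in 20 of 22.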
